A study of Mus musculus with 10 samples.

Results

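Transcripts of the potassium channel genes were examined in RNA sequencing libraries of mouse aorta, the large artery that carries blood from the heart. The members are all genes whose symbol in the deposited tables begins with Kcn, which took 96 of 35667 genes without use of their values. They comprise pore-forming and accessory subunits, and also the noncoding and regulatory genes Kcnq1ot1, Kcnd3os, Kcnab3os, Kcnmb4os1, Kcnmb4os2 and Kcnrg. The 10 libraries came from C57BL/6 mice aged 12 weeks. By their titles, 5 were labelled KO, for knockout of Ovgp1, the gene of oviductal glycoprotein 1, and 5 were labelled WT, for wild type. In the genotype field only KO replicate 1 has Ovgp1, while KO replicates 2, 3, 4 and 5 have Ovgp2, Ovgp3, Ovgp4 and Ovgp5. How the allele was made is not given in the sources used here, and no treatment is named for either group. From its title, the study concerned Ovgp1 in the vessel wall and in blood pressure.

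Potassium channels let potassium leave a cell or, in the inward rectifiers, pass more easily inwards. In arterial smooth muscle the outward current holds the membrane negative, which keeps voltage-gated calcium channels closed and the vessel relaxed. Each channel is built from pore-forming alpha subunits, often with accessory subunits that set its voltage range, calcium sensitivity or trafficking. The main families are the voltage-gated channels (such as Kcna, Kcnc, Kcnd, Kcnq and Kcnh), the calcium-activated channels (Kcnma and Kcnn), the inward rectifiers (Kcnj) and the 2-pore leak channels (Kcnk).

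The targeted gene went against the labels. Ovgp1 (ENSMUSG00000074340, chromosome 3, 105973711 to 105987423 in GRCm38) was measured in CPM, the count scaled to library size by TMM. It had 17.8 to 21.9 CPM under the KO label and 1.98 to 4.69 CPM under the WT label. It was thus higher in all 5 libraries under the KO label, with a log2 difference of 2.40 (SE 0.18, edgeR quasi-likelihood test, Benjamini-Hochberg adjusted p = 2.84e-05). With the 5 KO libraries summed into 1 sample the difference did not pass (edgeR adjusted p = 0.217). All directions below refer to the labels. Total counts were 24434745 to 26694590 in the libraries labelled KO and 21242030 to 24396394 in those labelled WT. Pairs of libraries in a group were compared over 12509 genes by a chi-square divided by its degrees of freedom, which was 1.77 to 3.25 under KO and 11.03 to 154 under WT over all 10 pairs each. A value near 1 would mean counting error alone, so the libraries labelled KO were nearly identical. Whether replicates are separate animals is not stated in the labels, and p-values measure only the spread between libraries. The counts of members past the test, and each call of a member, are therefore given also with the KO counts summed into 1 sample, which takes the spread from the WT libraries alone. Mitochondrial genes took 16.2% and 13.2% of counts in WT replicates 1 and 3, against 6.75% to 9.59% in the other WT libraries and 7.61% to 7.88% under KO. Summed markers of smooth muscle were the highest of all the marker lists in all 10 libraries, at 38305 to 38901 CPM under KO and 28041 to 41721 CPM under WT.

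The sequence before the start site is shown for 3 members that differed between groups in the 5 against 5 test described below. Each is the 250 bases upstream of the start in RefSeq, build GRCm38.p6, written 5′ to 3′ on the gene's strand, and none overlaps an exon of GENCODE M21. Capitals mark matches on either strand to the CCAAT box, the GC box written GGGCGG, the E-box written CACGTG, the TATA box written TATAAA or the CArG box, the serum response factor motif of smooth muscle promoters. None of the 5 motifs overlapped another in these windows. A window of Kcne4 and a second window of Kcnq5 overlapped annotated exons and are not shown.
Kcnmb1 (chr11:33962763-33963012, plus strand): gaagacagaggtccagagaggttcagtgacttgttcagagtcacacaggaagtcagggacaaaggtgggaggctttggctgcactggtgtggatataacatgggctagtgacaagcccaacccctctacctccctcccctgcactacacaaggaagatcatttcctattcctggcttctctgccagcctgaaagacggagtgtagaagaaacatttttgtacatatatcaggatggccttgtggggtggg
Kcnq5 (chr1:21962651-21962900, minus strand): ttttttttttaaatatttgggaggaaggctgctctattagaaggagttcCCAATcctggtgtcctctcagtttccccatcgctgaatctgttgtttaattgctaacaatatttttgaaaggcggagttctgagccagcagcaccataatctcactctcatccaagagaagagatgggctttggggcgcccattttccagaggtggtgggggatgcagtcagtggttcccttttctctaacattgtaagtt
Kcnk1 (chr8:125994852-125995101, plus strand): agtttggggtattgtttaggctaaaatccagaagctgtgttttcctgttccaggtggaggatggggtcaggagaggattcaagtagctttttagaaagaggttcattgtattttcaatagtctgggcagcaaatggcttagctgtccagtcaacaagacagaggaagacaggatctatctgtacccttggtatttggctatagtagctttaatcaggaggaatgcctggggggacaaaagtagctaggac

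The windows of Kcnmb1 and Kcnk1 held none of these letters, and that of Kcnq5 held 1 CCAAT. GC content was 50.8% for Kcnmb1, 44.4% for Kcnq5 and 44.4% for Kcnk1. RefSeq windows were matched by symbol for 70 of 96 members, giving 95 windows. The CArG box was in 0 of these 95 and in 1.47% of all 32851 windows. GGGCGG was in 43.2% of the members' windows and 32.7% of all windows, CCAAT in 30.5% and 33.8%, CACGTG in 6.32% and 6.02%, and TATAAA in 3.16% and 12.4%. A match is a description of letters and not of a binding site.

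Of the 96 members, 45 had enough counts to be tested, and 34 of these had a mean of at least 1 CPM. The other 51 had at most 20 counts in any library, and 12 of them had fewer than 5 counts over all 10 libraries together. Among these were 10 of 15 inward rectifier genes, 8 of 14 leak channel genes, 6 of 7 Kcnh genes, 6 of 9 silent subunits of voltage-gated channels and 3 of 5 members of the large-conductance calcium-activated (BK) group, the beta subunits Kcnmb2, Kcnmb3 and Kcnmb4. Differences between groups were not tested for these 51. In bulk tissue, fewer cells of a type and less RNA per cell cannot be told apart, for every value below.

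**Figure D1:**
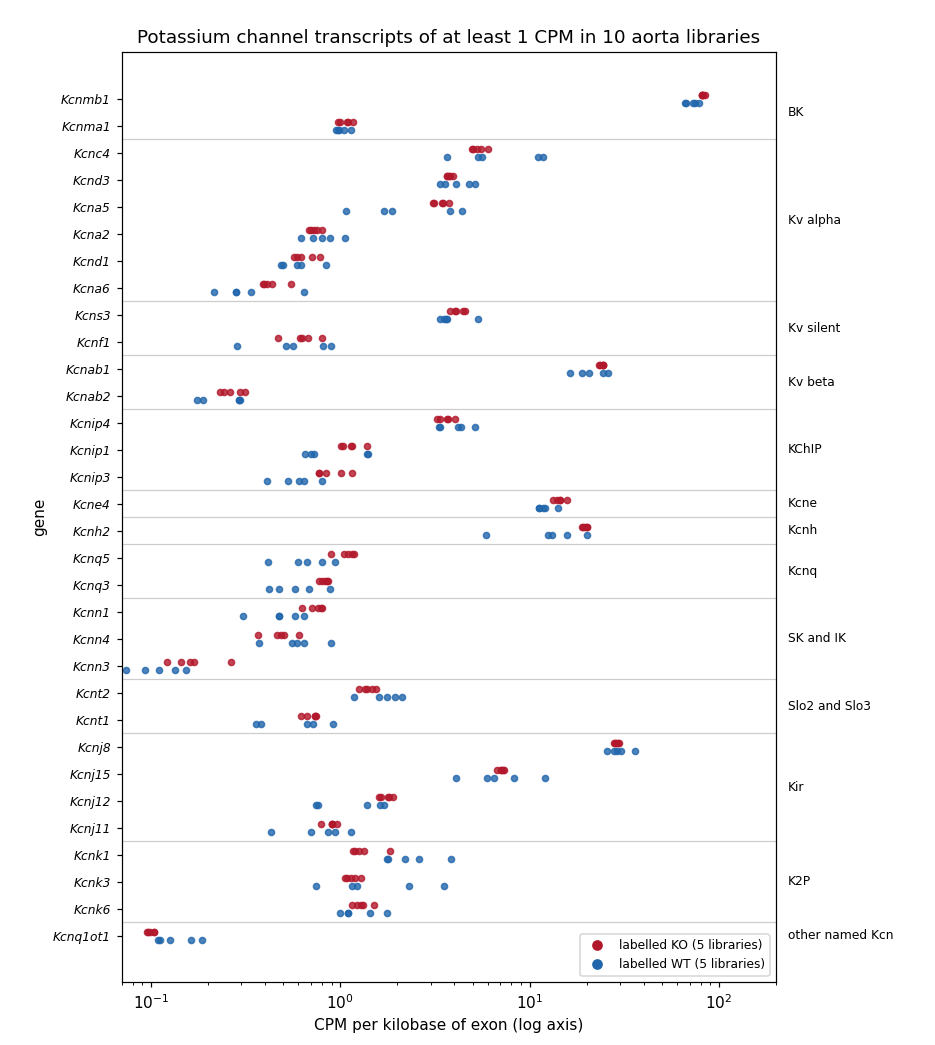
Level in each of the 10 libraries of 32 members with a mean of at least 1 CPM, in CPM per kilobase of merged exon on a log axis, grouped by subfamily, with red points for the 5 libraries labelled KO and blue points for the 5 labelled WT. Kcnmb1 lies furthest right in both groups, and the red points lie closer together than the blue ones for most genes.

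The most abundant member per length was the smooth muscle BK beta subunit Kcnmb1, which raises the calcium sensitivity of the channel. It had a mean level of 82.0 CPM per kilobase of exon under KO and 71.7 under WT. The next by level per kilobase were Kcnj8, the inward rectifier pore of vascular ATP-sensitive channels, at 28.7 under KO and 29.8 under WT, and Kcnab1, a cytoplasmic beta subunit of voltage-gated channels, at 23.9 and 21.2. The WT ranges of these 2 genes overlapped narrowly, at 25.6 to 36.1 CPM per kilobase for Kcnj8 and 16.4 to 25.8 for Kcnab1. Over the longest protein-coding transcript in place of merged exons, an alternative chosen after seeing the data, Kcnab1 had 63.4 CPM per kilobase under KO and 56.2 under WT and came before Kcnj8. Lower levels per kilobase were those of Kcnh2, which carries a rapid delayed rectifier current, at 19.6 under KO and 13.5 under WT, and of Kcne4 at 14.3 and 12.0. The order of these 2 cannot be given under WT, where their ranges overlapped at 5.90 to 20.0 and 11.1 to 14.1 CPM per kilobase.

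The BK pore itself, Kcnma1, had far less transcript per length than its beta subunit. Kcnma1 (chromosome 14, 23289431 to 24014491) had a mean level of 1.07 CPM per kilobase under KO and 1.02 under WT. The ratio of Kcnmb1 to Kcnma1 in CPM per kilobase was 77.3 ± 6.15 (SD, n = 5) under KO, from 69.5 to 84.5, and 70.3 ± 4.73 (SD, n = 5) under WT, from 63.9 to 75.7. The 2 ranges overlapped. Over the longest protein-coding transcript the ratio ran from 49.5 to 60.2 under KO and from 45.5 to 53.9 under WT.

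In the 5 against 5 comparison, the edgeR quasi-likelihood test with Benjamini-Hochberg adjustment over 15710 genes passed 5 of 45 tested members, 11.1%, where it passed 14.3% of all genes tested. Of these, 3 were higher under KO, 6.67% of members against 6.84% of all genes: Kcnmb1, Kcne4 and Kcnq5. The other 2 were lower, 4.44% against 7.43%: Kcnk1 and the noncoding Kcnq1ot1. The members' share was near or below the background. With RLE size factors in place of TMM, 5 members passed, 4 higher and 1 lower, Kcnn1 in place of Kcnq1ot1. The count changed when 1 library was left out. It was 0 or 1 whichever library labelled KO was left out. As those libraries were nearly identical, this fall singles out none of them. The count was 9 without WT replicate 3, 3 without WT replicate 4 and 1 without WT replicate 5. Without WT replicates 1 and 3 it was 14, with 11 higher and 3 lower. With the KO counts as 1 sample, edgeR passed 0 of 45 members (adjusted p = 0.999 for each) and 0.0446% of all genes. At an unadjusted p under 0.05 that fit had 0 members and 3.72% of all genes, while the 5 against 5 fit had 15 members, 33.3%, and 29.5% of all genes. In the 5 against 5 comparison DESeq2 passed 7 members, 15.6%, and 18.9% of all genes, and limma-voom 22 members, 48.9%, and 41.2% of all genes. The log2 difference was positive for 28 tested members and negative for 17, with a median of 0.11 against -0.02 over all genes, and the median of its size without sign was 0.27 against 0.16. All 5 libraries labelled KO lay above all 5 labelled WT for 1 member, Kcnmb1, and below for 1 member, Kcnq1ot1, which is 2.22% each against 7.38% and 7.22% of all genes. For 25 of the 45, every library labelled KO lay within the WT range (55.6%, against 44.5% of all genes).

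**Figure D2:**
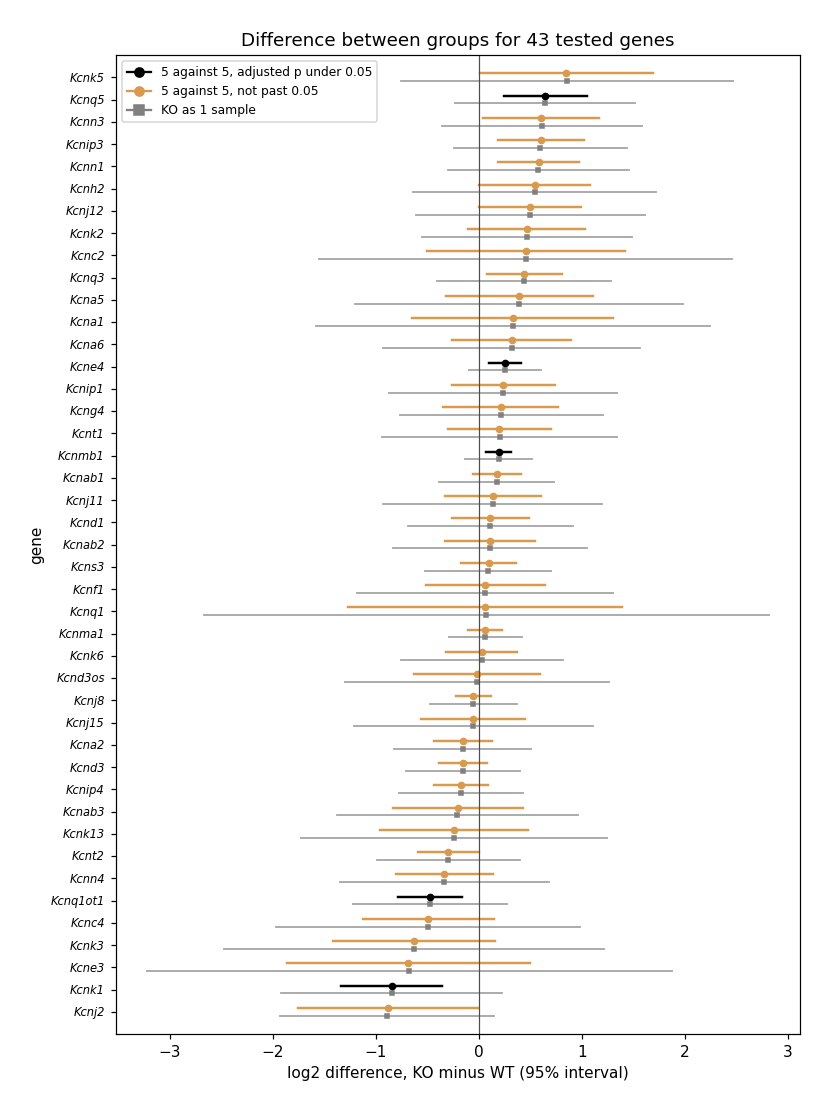
Log2 difference, KO minus WT, with its 95% interval for 43 tested members, from the 5 against 5 fit (circles, black where the adjusted p was under 0.05 and orange otherwise) and from the fit with KO as 1 sample (grey squares). The 5 against 5 intervals of 14 genes leave 0, of which 5 are black, and all 43 grey intervals include 0.

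Among the BK subunits, Kcnmb1 was higher under KO and Kcnma1 did not pass the test. Kcnmb1 (ENSMUSG00000020155, chromosome 11, 33963013 to 33973641) had 351, 339, 345, 341 and 342 CPM in KO replicates 1 to 5 and 327, 314, 306, 279 and 277 CPM in WT replicates 1 to 5. The groups did not overlap, and the spread within WT was larger than within KO. The means were 344 ± 4.77 (SD, n = 5) and 300.4 ± 21.8 CPM (SD, n = 5), a log2 difference of 0.19 (SE 0.06) and a fold of 1.14 (95% interval 1.05 to 1.24, edgeR adjusted p = 0.0370). With KO as 1 sample the interval was 0.910 to 1.44 (edgeR adjusted p = 0.999). Leaving out any 1 library labelled KO ended the call (edgeR adjusted p 0.0762 to 0.0916), as did leaving out WT replicate 4 (0.0579) or WT replicate 5 (0.0818). Those WT libraries had the lowest smooth muscle marker sums, 28041 CPM in replicate 4 and 30874 CPM in replicate 5. The other WT libraries had 33664 to 41721 CPM. The sum was mostly Acta2 and Myh11. Acta2, Myh11, Tagln, Cnn1 and Lmod1 were lowest in WT replicates 4 and 5, while Des, Mylk and Smtn were not. Of the 8 smooth muscle markers, 1 was higher and 1 lower in the 5 against 5 test. Their part in the result was not tested. Kcnma1, the pore, had 18.4, 18.7, 16.5, 19.9 and 16.9 CPM under KO and 17.8, 16.8, 19.4, 16.6 and 16.1 CPM under WT. The groups overlapped, and the fold was 1.04 (95% interval 0.933 to 1.17, edgeR adjusted p = 0.628). Its annotated exons overlap those of a noncoding gene on the other strand.

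**Figure D3:**
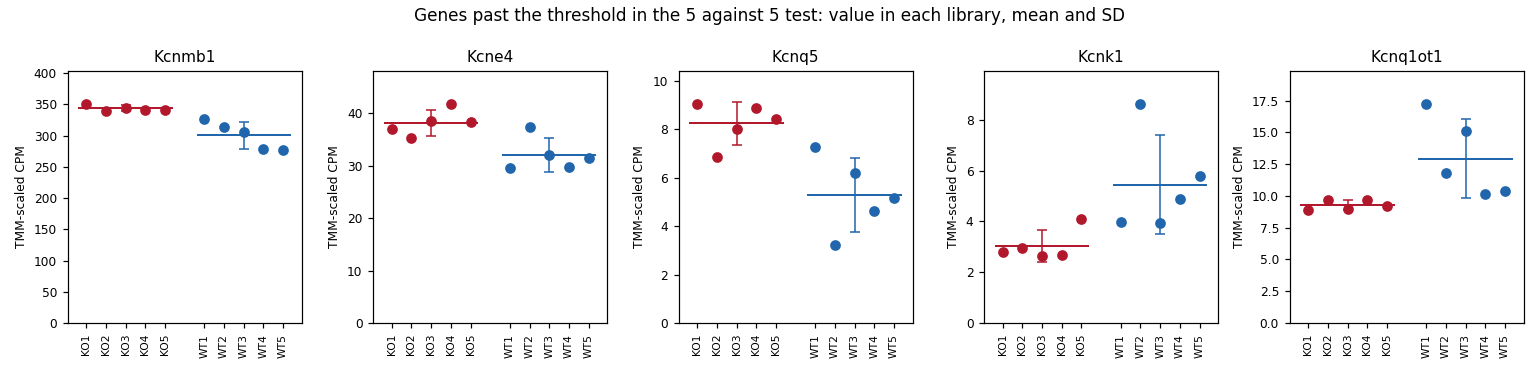
TMM-scaled CPM in each of the 10 libraries for the 5 members past the threshold in the 5 against 5 test, with the group mean as a horizontal line and 1 SD as a bar, red for KO and blue for WT. The groups lie apart for Kcnmb1 and Kcnq1ot1 and overlap for Kcne4, Kcnq5 and Kcnk1.

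Of 16 genes for voltage-gated pores outside the Kcnq and Kcnh families, 9 were tested and none passed in either direction by edgeR with Benjamini-Hochberg adjustment. At an unadjusted p under 0.05 there was 1, and DESeq2 passed 0 and limma-voom 3. Kcna5, a delayed rectifier pore of arterial smooth muscle, had 9.89, 10.7, 9.93, 8.88 and 8.95 CPM under KO. Its WT values of 4.85, 3.08, 5.34, 12.6 and 10.9 CPM lay on both sides of those (log2 difference 0.39, edgeR adjusted p = 0.459). Kcna2, which can assemble with Kcna5, had 8.12 to 9.53 CPM under KO and 7.41 to 12.6 CPM under WT (log2 difference -0.15, edgeR adjusted p = 0.466). Kcnc4, a voltage-gated pore of the Kcnc family, had 20.2, 18.4, 18.2, 19.3 and 22.0 CPM under KO and 40.8, 20.7, 43.4, 13.5 and 19.6 CPM under WT. WT replicates 1 and 3 were high, the groups overlapped, and the log2 difference was -0.49 (edgeR adjusted p = 0.291). Kcnd3, an A-type pore, had 35.1 to 37.8 CPM under KO and 32.1 to 49.1 CPM under WT (log2 difference -0.16, edgeR adjusted p = 0.358).

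Subunits that modify these pores did not pass the test either, with 0 of 3 beta subunits, 0 of 3 KChIP genes and 0 of 3 silent alpha subunits past it among those tested by edgeR. At an unadjusted p under 0.05 there were 0, 1 (Kcnip3) and 0 of these. DESeq2 passed Kcnip3 alone, and limma-voom Kcnab1, Kcnip1, Kcnip3 and Kcns3. Kcnab1 had 201, 209, 199, 210 and 209 CPM under KO and 222, 178, 210, 141 and 162 CPM under WT. WT replicates 4 and 5 were lowest, as they were for summed smooth muscle markers, and the log2 difference was 0.17 (SE 0.11, edgeR adjusted p = 0.308). Kcnip4, a calcium-binding partner of Kcnd pores, had 11.8 to 14.7 CPM under KO and 12.1 to 18.8 CPM under WT (log2 difference -0.17, edgeR adjusted p = 0.375). Kcns3, a silent subunit that works only with other pores, had 11.9 to 14.4 CPM under KO and 10.7 to 16.97 CPM under WT (log2 difference 0.10, edgeR adjusted p = 0.653). Kcnf1, another silent subunit, had 2.26 to 3.84 CPM under KO and 1.37 to 4.26 CPM under WT (log2 difference 0.06, edgeR adjusted p = 0.904).

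In the Kcnq group, whose channels open at negative voltages and oppose contraction, Kcnq5 was higher under KO. Kcnq5 (ENSMUSG00000028033, chromosome 1, 21398403 to 21961942) had 9.06, 6.84, 8.02, 8.88 and 8.43 CPM under KO and 7.25, 3.21, 6.19, 4.61 and 5.15 CPM under WT. KO replicate 2 lay below WT replicate 1, so the groups overlapped. The means were 8.25 ± 0.883 and 5.28 ± 1.54 CPM (SD, n = 5 each), with a log2 difference of 0.65 (SE 0.18) and a fold of 1.56 (95% interval 1.18 to 2.07, edgeR adjusted p = 0.0371). With KO as 1 sample the interval was 0.851 to 2.86 (edgeR adjusted p = 0.999). The call ended without any 1 library labelled KO (edgeR adjusted p 0.0503 to 0.0887), without WT replicate 4 (0.0611) and without WT replicate 5 (0.0716). An exon of Kcnq5 overlaps a noncoding gene on the other strand, and whether the counting used strand is not given in the sources used here. Kcnq3 had 11.4 to 12.7 CPM under KO and 6.20 to 12.97 CPM under WT (log2 difference 0.44, edgeR adjusted p = 0.101). Kcnq1, the cardiac member, was low in the aorta, at 0.338 to 0.695 CPM under KO and 0.181, 1.33, 0.0998, 0.823 and 0.0929 CPM in WT replicates 1 to 5 (log2 difference 0.06, edgeR adjusted p = 0.960). Its high WT libraries were replicates 2 and 4. Of the 4 genes tested in the group, 2 had an unadjusted edgeR p under 0.05, Kcnq3 and Kcnq5. DESeq2 passed Kcnq5 alone, and limma-voom Kcnq1, Kcnq3 and Kcnq5.

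Kcne4, a small membrane partner that binds Kcnq and Kcna pores, was also higher under KO. It (ENSMUSG00000047330, chromosome 1, 78816758 to 78820028) had 36.9, 35.2, 38.4, 41.8 and 38.4 CPM under KO and 29.6, 37.3, 32.0, 29.7 and 31.3 CPM under WT. WT replicate 2 lay within the KO range and the other WT libraries below it. The means were 38.1 ± 2.44 and 32.0 ± 3.16 CPM (SD, n = 5 each), a log2 difference of 0.25 (SE 0.07) and a fold of 1.19 (95% interval 1.07 to 1.33, edgeR adjusted p = 0.0375). With KO as 1 sample the interval was 0.935 to 1.52 (edgeR adjusted p = 0.999). The call ended without KO replicate 1, 3, 4 or 5 (edgeR adjusted p 0.0685 to 0.0995) and without WT replicate 1 (0.0636), 4 (0.0646) or 5 (0.0760). Of the other 4 Kcne genes, only Kcne3 was tested, and it lay below 1 CPM in every library but WT replicate 4.

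Kcnh2 was the single tested member of its group of 7. It had 95.5, 91.7, 97.6, 93.1 and 96.7 CPM under KO and 60.3, 28.6, 96.96, 76.7 and 63.6 CPM under WT. WT replicate 3 lay within the KO range and WT replicate 2 at less than all others. The means were 94.9 ± 2.45 and 65.2 ± 25.1 CPM (SD, n = 5 each), and the log2 difference of 0.54 (SE 0.24) did not pass (edgeR adjusted p = 0.167). Its unadjusted edgeR p was 0.0486, DESeq2 did not pass it and limma-voom did.

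No inward rectifier passed the edgeR test among the 5 tested of 15. At an unadjusted p under 0.05 there were 2, Kcnj2 and Kcnj12, and DESeq2 passed 0 and limma-voom 1, Kcnj12. Kcnj8, the ATP-sensitive pore, had 74.5, 75.8, 72.4, 71.9 and 71.3 CPM under KO and 65.1, 77.4, 92.1, 71.3 and 73.7 CPM under WT. The groups overlapped, with the lowest and the highest value both under WT (fold 0.964, 95% interval 0.857 to 1.09, edgeR adjusted p = 0.700). Abcc9, the sulfonylurea receptor that pairs with Kcnj8, had 358 ± 3.47 CPM under KO and 349 ± 47.1 CPM under WT (SD, n = 5 each, log2 difference 0.04, edgeR adjusted p = 0.793). Kcnj11, the other ATP-sensitive pore, had 2.89 to 3.55 CPM under KO and 1.59 to 4.19 CPM under WT (log2 difference 0.14, edgeR adjusted p = 0.711). Kcnj15 had 42.3, 46.4, 44.6, 44.6 and 45.9 CPM under KO and 76.1, 52.3, 25.6, 37.4 and 41.0 CPM under WT. WT replicates 1 and 3, alike in their high mitochondrial share, were its highest and lowest libraries (log2 difference -0.06, edgeR adjusted p = 0.902). Kcnj2, the strong rectifier of endothelium and small arteries, had only 0.112 to 0.838 CPM under KO and 0.599 to 0.906 CPM under WT. Its log2 difference of -0.88 (SE 0.40) did not pass (edgeR adjusted p = 0.166), and its p of 0.0815 before adjustment was the smallest of any member by edgeR with KO as 1 sample.

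Among the leak channels, Kcnk1 was lower under KO. Kcnk1 (ENSMUSG00000033998, chromosome 8, 125995170 to 126030685), a weak inward-rectifying leak channel, had 2.79, 2.97, 2.62, 2.67 and 4.11 CPM under KO and 3.99, 8.64, 3.94, 4.90 and 5.80 CPM under WT. KO replicate 5 lay above WT replicates 1 and 3, and WT replicate 2 was highest. The means were 3.03 ± 0.615 and 5.45 ± 1.94 CPM (SD, n = 5 each), a log2 difference of -0.85 (SE 0.23) and a fold of 0.556 (95% interval 0.394 to 0.782, edgeR adjusted p = 0.0283). With KO as 1 sample the interval was 0.264 to 1.17 (edgeR adjusted p = 0.999). The call ended without KO replicate 1, 2, 3 or 4 (edgeR adjusted p 0.0685 to 0.0750) and without WT replicate 5 (0.0578). The 8 cardiomyocyte markers, 6 of them tested and 0 past the edgeR test (1 at an unadjusted p under 0.05, 0 by DESeq2, 1 by limma-voom), also had their highest sum in WT replicate 2, at 170 CPM against 56.0 to 86.1 CPM in the other WT libraries and 78.6 to 83.2 CPM under KO. Within that list, Myh6 was highest in WT replicate 2, at 59.8 CPM. Tnnt2 was highest in WT replicate 1, at 78.4 CPM against 70.9 CPM in replicate 2. WT replicate 3 had the lowest sum of the list and 3.94 CPM of Kcnk1. No marker of that list was at 0 in all libraries, and its part in the result was not tested. Among WT libraries, the fibroblast, macrophage and lymphocyte marker sums were also highest in replicate 2, at 2528, 273 and 15.8 CPM. The other WT libraries had 2152 to 2355, 166 to 211 and 6.39 to 14.1 CPM. Under KO the 3 sums were 2816 to 2866, 245 to 254 and 179 to 182 CPM. The remaining cell type lists had their highest WT sum in another replicate. The part of these sums was not tested either.

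Kcnk3, an acid-sensitive leak channel, had 4.31, 4.77, 4.53, 5.12 and 4.22 CPM under KO and 4.85, 2.95, 4.59, 13.96 and 9.19 CPM under WT. WT replicates 4 and 5 stood above all other libraries (log2 difference -0.63, edgeR adjusted p = 0.268). Kcnk6 had 4.81 to 6.25 CPM under KO and 4.12 to 7.29 CPM under WT (log2 difference 0.03, edgeR adjusted p = 0.932). Of the 6 leak channel genes tested, 2 had an unadjusted edgeR p under 0.05, Kcnk1 and Kcnk5. For Kcnk5 the log2 difference was 0.85 (edgeR adjusted p = 0.167). DESeq2 passed Kcnk1 alone, and limma-voom Kcnk1, Kcnk3, Kcnk5 and Kcnk6, the last with the opposite sign to edgeR. Kcnk2, a stretch-sensitive leak channel, was below 1 CPM in all libraries, at 0.526 to 0.950 CPM under KO and 0.371 to 0.679 CPM under WT (log2 difference 0.46, edgeR adjusted p = 0.266).

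Small- and intermediate-conductance calcium-activated channels, which act in endothelium, were low and 0 of the 3 tested passed by edgeR, with Kcnn1 and Kcnn3 at an unadjusted p under 0.05. DESeq2 passed Kcnn1, and limma-voom passed Kcnn1 and Kcnn3. Kcnn3 had 1.28, 1.504, 2.77, 1.68 and 1.78 CPM under KO and 1.40, 0.770, 1.148, 1.61 and 0.975 CPM under WT. The groups overlapped (log2 difference 0.61, edgeR adjusted p = 0.139). Kcnn4 had 1.87 to 3.11 CPM under KO and 1.90 to 4.57 CPM under WT (log2 difference -0.34, edgeR adjusted p = 0.331). Kcnn1 had 3.63, 3.27, 3.48, 3.69 and 2.88 CPM under KO and 2.17, 1.41, 2.94, 2.63 and 2.18 CPM under WT. KO replicate 5 lay just below WT replicate 3, and the log2 difference of 0.58 (SE 0.18) fell short of the threshold (edgeR adjusted p = 0.0523). Kcnt2, a sodium-activated channel, had 8.70 to 10.6 CPM under KO and 8.18 to 14.7 CPM under WT (log2 difference -0.30, edgeR adjusted p = 0.169). In its group, 1 of 2 tested genes had an unadjusted edgeR p under 0.05, DESeq2 passed 0 and limma-voom passed Kcnt2.

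Kcnq1ot1, the long noncoding RNA transcribed antisense to Kcnq1 from the paternal chromosome, was lower under KO. Kcnq1ot1 (ENSMUSG00000101609, chromosome 7, 143203458 to 143296549) had 8.90, 9.66, 8.99, 9.69 and 9.21 CPM under KO and 17.3, 11.8, 15.1, 10.1 and 10.4 CPM under WT. The groups did not overlap, but WT replicates 4 and 5 lay close to the KO values while WT replicates 1 and 3, the libraries of high mitochondrial share, were highest. The means were 9.29 ± 0.370 and 12.9 ± 3.13 CPM (SD, n = 5 each), with a log2 difference of -0.47 (SE 0.14) and a fold of 0.720 (95% interval 0.581 to 0.892, edgeR adjusted p = 0.0451). DESeq2 passed Kcnq1ot1, and limma-voom did not. Without WT replicates 1 and 3, a reading chosen with earlier results known, the log2 difference was -0.20 (edgeR adjusted p = 0.103). The call also ended without any 1 library labelled KO (edgeR adjusted p 0.0844 to 0.101) and without WT replicate 1 (0.0844), 2 (0.0502) or 3 (0.0758). With KO as 1 sample it did not pass either (edgeR adjusted p = 0.999). Since strand use is not given, reads of Kcnq1ot1 and Kcnq1 cannot be told apart where their exons overlap. Kcnd3os, antisense to Kcnd3, had 0.451 to 0.585 CPM under KO and 0.232 to 0.684 CPM under WT (log2 difference -0.01, edgeR adjusted p = 0.979).

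The libraries labelled WT differed widely among themselves. Of the 34 members of at least 1 CPM, 19 had a highest WT library at least 2-fold above the lowest, and 1, Kcnn3, did so under KO. The median coefficient of variation of the tested members was 30.1% under WT and 9.63% under KO. Among the 34 of at least 1 CPM, the 5 with the largest WT ratio of highest to lowest were Kcnk3 at 4.73, Kcna5 at 4.09, Kcnh2 at 3.39, Kcnc4 at 3.21 and Kcnf1 at 3.11. WT replicate 2 was the lowest WT library for 11 of the 34 members, among them Kcnh2, Kcna5, Kcnq3 and Kcnq5. WT replicates 1 and 3 were the highest for 11 members each, and WT replicate 5 for 1.

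**Figure D4:**
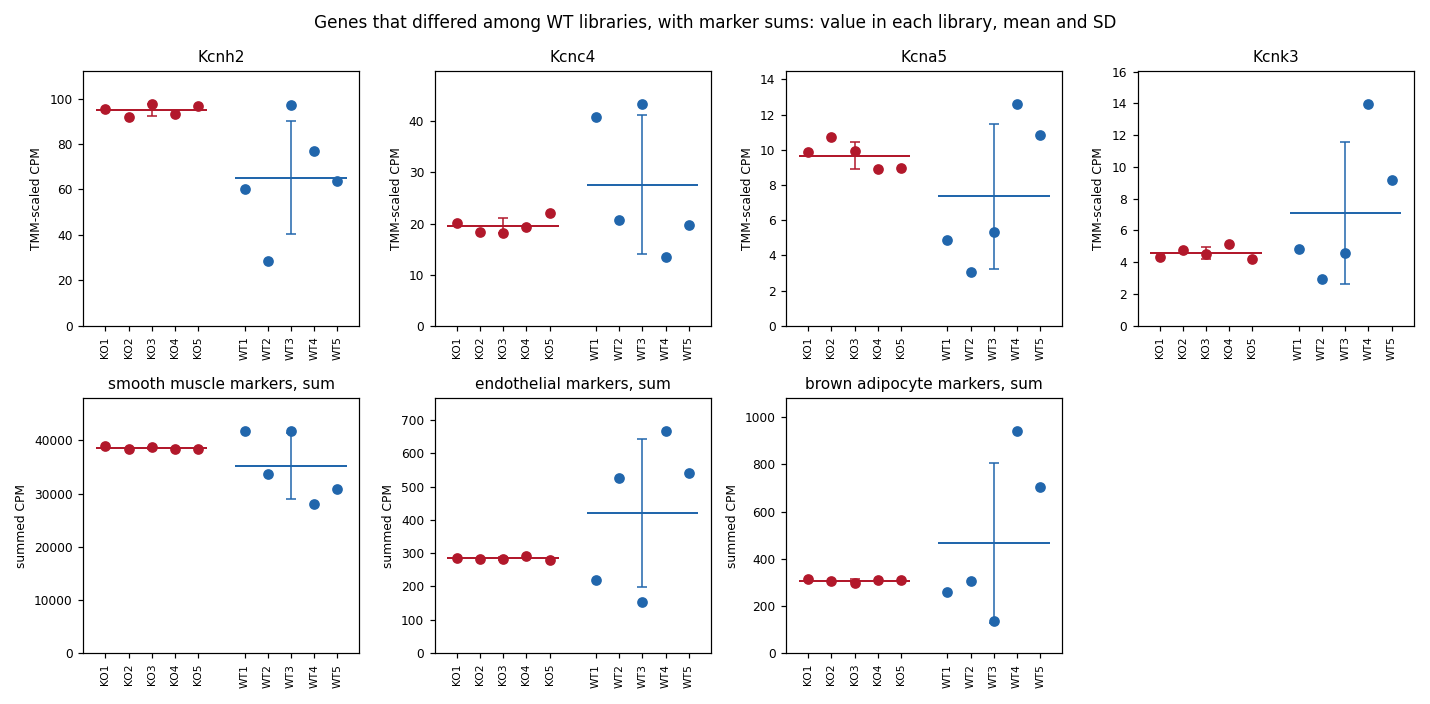
TMM-scaled CPM of Kcnh2, Kcnc4, Kcna5 and Kcnk3 and summed CPM of smooth muscle, endothelial and brown adipocyte markers in each of the 10 libraries, with the group mean as a line and 1 SD as a bar, red for KO and blue for WT. Kcna5 and Kcnk3 are highest in WT replicates 4 and 5, as is the brown adipocyte sum. Kcnc4 and the smooth muscle sum are highest in WT replicates 1 and 3.

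Marker levels moved among the same libraries. The 8 brown adipocyte markers summed to 257, 305, 135, 941 and 703 CPM in WT replicates 1 to 5 and to 297 to 314 CPM under KO. The 8 endothelial markers summed to 218, 525, 153, 667 and 541 CPM under WT and 279.9 to 291.7 CPM under KO. WT replicates 4 and 5 were thus highest in both sums, as they were for Kcna5 and Kcnk3. WT replicate 2, close to replicate 5 in the endothelial sum, was the lowest WT library for both genes. The brown adipocyte sum was instead lowest in WT replicate 3. The 6 adipocyte markers summed to 169, 113, 200, 450 and 334 CPM in WT replicates 1 to 5. That sum too was highest in WT replicates 4 and 5, and it was lowest in replicate 2. Pecam1, the largest part of the endothelial sum, was highest in WT replicate 2, at 405 CPM. It had 366 and 324 CPM in WT replicates 4 and 5. The 8 smooth muscle markers summed to 41703, 33664, 41721, 28041 and 30874 CPM under WT. That sum, mostly Acta2 and Myh11, was highest in WT replicates 1 and 3, as was Kcnc4. Among WT libraries, Acta2, Myh11, Tagln and Smtn were also highest in these. Cnn1 and Lmod1 were highest in WT replicate 2, at 2680 and 1491 CPM, and Des in WT replicate 4, at 168 CPM. Mylk was highest in WT replicate 1 and lowest in WT replicate 3. Of the endothelial and the brown adipocyte markers, 0 of 8 each passed the 5 against 5 edgeR test, 1 of each had an unadjusted p under 0.05, DESeq2 passed 0 and 1, and limma-voom 3 and 4. No marker of these lists was at 0 in all libraries, and their part in the channel values was not tested.

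Some other cell type lists had members past the 5 against 5 edgeR test, which passed 14.3% of all genes. When KO was taken as 1 sample, 1 lymphocyte marker passed and 0 of the fibroblast, sympathetic neuron, Schwann cell, red cell, macrophage and cartilage markers. Of 8 fibroblast markers, 5 were higher under KO by edgeR, and their sum was 2816 to 2866 CPM under KO and 2152 to 2528 CPM under WT. Of the 5 tested sympathetic neuron markers, 4 were higher, with sums of 16.0 to 17.5 and 5.003 to 9.06 CPM. Of 8 Schwann cell markers, 2 were higher, with sums of 67.0 to 73.9 and 35.0 to 60.3 CPM. All 5 red cell genes were lower under KO, with sums of 19.2 to 21.3 and 65.7 to 327 CPM. Of the 4 tested lymphocyte markers, 2 were higher, Ighm and Jchain, with sums of 179 to 182 and 6.39 to 15.8 CPM. Those 2 made up most of the sums, at means of 157 and 22.8 CPM under KO and 9.35 and 1.35 CPM under WT. Cd3e and Cd79a did not pass, at means of 0.424 and 0.397 CPM under KO and 0.412 and 0.614 CPM under WT. Of macrophage markers 2 of 6 and of tested cartilage markers 2 of 4 were higher, with sums of 245 to 254 and 166 to 273 CPM for the former and 149 to 159 and 108 to 138 CPM for the latter. Adipocyte markers summed to 265 to 278 and 113 to 450.3 CPM and skeletal muscle markers to 8.502 to 9.18 and 4.65 to 11.8 CPM. By edgeR 0 of 6 and 0 of 4 of these passed, and 0 had an unadjusted p under 0.05, while DESeq2 passed 0 and limma-voom 1 and 2. Their part in the differences of Kcnmb1, Kcne4, Kcnq5, Kcnk1 and Kcnq1ot1 was not tested.

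A total of 5 members lie within 2 Mb of Ovgp1 on chromosome 3. They are Kcnd3 (105452330 to 105674002), at a distance of 299.7 kb, Kcnd3os at 520.8 kb, Kcna2 at 1114 kb, Kcna10 at 1196 kb and Kcnc4 at 1451 kb. Of the 4 tested, 0 passed by edgeR (adjusted p 0.291 to 0.979), 0 had an unadjusted p under 0.05, DESeq2 passed 0 and limma-voom 1, Kcnd3os, and the shaker-type pore gene Kcna10 had too few counts to test.

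Genes that work with the channels but are not named Kcn were read from 3 lists. Of 9 accessory subunits, 4 were tested and 0 passed by edgeR, 0 were at an unadjusted p under 0.05, DESeq2 passed 0 and limma-voom 1, Abcc9. Of 12 sodium-potassium pump subunits and chloride cotransporters, 1 was higher and 2 were lower under KO in the 5 against 5 edgeR test, and 0 passed with KO as 1 sample. Fxyd6, which modulates the pump, had 19.0 ± 0.861 CPM under KO and 11.5 ± 2.84 CPM under WT (SD, n = 5 each, log2 difference 0.72, SE 0.15, edgeR adjusted p = 0.00857). Atp1b2, a pump beta subunit, had 98.6 ± 1.62 and 117.7 ± 10.3 CPM (log2 difference -0.26, SE 0.06, edgeR adjusted p = 0.0146). The calls of Fxyd6 and Atp1b2 held when any 1 library was left out. Slc12a2, which brings chloride in with sodium and potassium, had 20.7 ± 0.307 and 24.3 ± 2.49 CPM (log2 difference -0.23, SE 0.07, edgeR adjusted p = 0.0449). Its call ended without any 1 library labelled KO (0.0889 to 0.102) and without WT replicate 1, 2 or 4 (up to 0.0724).

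Of 18 calcium, cation and chloride channels of smooth muscle excitability, 17 were tested, and 1 was higher under KO in the 5 against 5 edgeR test. Cacna1g, a low-voltage-activated calcium pore, had 6.94, 6.43, 6.55, 6.54 and 5.58 CPM under KO and 5.39, 2.10, 4.74, 2.35 and 2.69 CPM under WT. The groups did not overlap, and the log2 difference was 0.90 (SE 0.24, edgeR adjusted p = 0.0299, and 0.999 with KO as 1 sample). Its call ended without any 1 library labelled KO (0.0535 to 0.0717) and without WT replicate 5 (0.0679). Itpr1, a calcium release channel of the store, had a log2 difference of 0.19 (edgeR adjusted p = 0.0823), and Ryr2, another, had -0.31 (edgeR adjusted p = 0.150). Neither passed by edgeR. Of the 17 tested, 3 had an unadjusted edgeR p under 0.05. DESeq2 passed 2, Cacna1g and Itpr1, and limma-voom 9, with Cacna1g, Itpr1 and Ryr2 among them.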

How the data were processed

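RNA sequencing libraries of aorta, 5 labelled KO and 5 labelled WT by title, were analysed from whole-number read counts per gene, as deposited by the authors. Per the labels' protocols, RNA was extracted with Trizol and libraries made with the Illumina TruSeq RNA kit. Per the submitters' processing notes, the work used Bowtie 0.12.2 and the mm8 and mm9 builds, in roles the notes leave unsaid. For counting, the tool, annotation and use of strand were not given in the sources used here. Positions and exon lengths come from GENCODE M21 (GRCm38), which matched all 96 members and 35562 of 35667 genes by identifier.

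All genes were fitted in R 4.3.3 with edgeR 4.0.16 (robust quasi-likelihood F test, TMM scaling, filterByExpr at a minimum count of 10 and total of 15), and adjusted by Benjamini-Hochberg over 15710 genes at 0.05. Each standard error was taken as the size of the log2 difference over the root of F, and intervals are 95%. In a second fit the KO counts were summed into 1 sample. CPM is TMM-scaled. With 21242030 to 26694590 counts per library, a CPM of 1 rests on more than 20 counts. SDs under KO cover little beyond counting error.

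Members, lists and markers were chosen with earlier results of these data known. Members named are those known from arterial muscle or endothelium, those past the threshold, the most abundant per length of each subfamily, and the 5 most variable among WT libraries. Kcnq3, Kcnd3, Kcne3 and members that only another tool passed were named after their values were seen. A few members covered by this rule were left out of the text and figures but stay in all counts over members. Alternatives were RLE size factors, other filters, a replicate block, each library left out, WT replicates 1 and 3 or 4 and 5 left out, DESeq2 1.42.0 and limma-voom (limma 3.58.1) with sample weights.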

Additional observations from a re-analysis of the deposited data

Results flagged for a closer look

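Single libraries far from the other 4 of their group were looked for in 52 groups of values, and 3 were found. Chance alone gives about 1 in 20. Kcnk1 had 4.11 CPM in KO replicate 5 against 2.62 to 2.97 CPM in the other libraries labelled KO. The antisense gene Kcnd3os had 0.451 CPM in KO replicate 2 against 0.555 to 0.585 CPM in the others. Kcns3 had 16.97 CPM in WT replicate 3 against 10.7 to 11.6 CPM in the others.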

How the results depend on the processing

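In the 5 against 5 comparison 5 members passed. The count was 9 with no low-count filter, 14 without WT replicates 1 and 3 and 22 by limma-voom, and 0 to 9 when 1 library was left out. Over all genes the 2242 past the threshold became 4386 without WT replicates 1 and 3, 6477 by limma-voom and 1287 to 2678 with 1 library left out. With KO as 1 sample, 0 members passed under every alternative run, while the 7 genes in all became 125 with no low-count filter, 13 without WT replicates 1 and 3, 2 without WT replicates 4 and 5 and 1 to 8 with 1 library left out. Shared replicate numbers did not pair the samples (correlations of deviations -0.04 to 0.04, and 2 of 5 libraries closest to their own number). With the replicate block, 2 members and 1319 genes passed. The cause of these shifts was not tested.

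Log2 differences changed sign for members that had not passed the 5 against 5 edgeR test, although limma-voom passed Kcnd3os and Kcnk6 with the opposite sign. Without WT replicates 1 and 3 they were 0.0519 for Kcna2, 0.14 for Kcnc4, 0.20 for Kcnd3os, 0.00699 for Kcnip4, -0.12 for Kcnk6 and -0.47 for Kcnq1. Without WT replicates 4 and 5 they were -0.0462 for Kcnf1, 0.16 for Kcnk3 and -0.0301 for Kcnq1. By limma-voom they were -0.0347 for Kcna5, 0.81 for Kcnd3os, 0.0541 for Kcnip4 and -0.31 for Kcnk6. For Kcnd3os it was 0.0359 with no low-count filter and 0.0200 with the replicate block. With 1 library left out, the log2 difference ran from -0.203 to 0.0916 for Kcnd3os, -0.110 to 0.250 for Kcnf1, -0.00932 to 0.287 for Kcnj11, -0.0920 to 0.0256 for Kcnj8, -0.0364 to 0.170 for Kcnk6 and -0.196 to 0.800 for Kcnq1. Depth limits the 51 untested members and the 11 tested members below 1 CPM.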
